A study of Homo sapiens with 10 samples.

Results

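The genes described here encode the chains of collagens and laminins and the subunits of integrins, with a few relatives that share their names. They were chosen from the symbols of the array platform: COL, LAMA, LAMB, LAMC, ITGA or ITGB followed by a digit or by V, X, L, M or E, without hyphenated names and without the COLEC and COLGALT families. For each gene the brightest probe set over the 10 arrays was taken, and genes with a mean log2 signal of 6 or more were kept. This left 48 of 82 such symbols, among 19775 genes with 1 symbol on the array and 12514 genes that were tested. All 48 were tested. The level was therefore used to choose them and is given as a description. Just inside the limit were ITGA2B with a mean log2 signal of 6.06, COL5A3 with 6.27 and LAMA2 with 6.28, and just outside it were ITGB3 with 5.93, COL26A1 with 5.90 and ITGA11 with 5.87.

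By role the 48 genes comprise 22 collagens, 7 laminin chains, 16 integrin subunits and 3 genes that encode neither a chain nor a subunit. The collagens are 6 fibrillar genes, 5 collagen IV genes of basement membranes, 3 genes of beaded filaments and anchoring fibrils, 6 FACIT genes, whose products sit on the surface of fibrils, 1 transmembrane collagen and 1 multiplexin. The laminins are 2 alpha, 3 beta and 2 gamma chains, and the integrins are 11 alpha and 5 beta subunits.

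Collagens and laminins are trimers that cells secrete into the extracellular matrix. Collagen IV and laminin form the sheets of the basement membrane under epithelia, while fibrillar collagens form the fibres of the stroma. Integrins are heterodimers of an alpha and a beta subunit that span the cell membrane, bind these matrix proteins outside and link them to the actin cytoskeleton inside. Carcinoma cells of the lung make part of their own matrix, and their integrin repertoire sets which matrix they can adhere to.

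RNA from human lung carcinoma lines was measured on Affymetrix U133 Plus 2.0 arrays after short interfering RNA (siRNA) against ID1. ID1 is a helix-loop-helix protein without a DNA-binding domain that sequesters E proteins, which otherwise bind E-box motifs. The lines were A549 and H1650, the latter labelled as EGFR mutant. Both were starved of serum for 48 h. In each line there was 1 array of control siRNA without stimulus, 1 of control siRNA with nicotine at 1 µM for 18 h, 1 of ID1 siRNA with nicotine, 1 of control siRNA with EGF (epidermal growth factor) at 100 ng/ml for 18 h, and 1 of ID1 siRNA with EGF. ID1 siRNA without stimulus was not analysed here, and the sequence of the siRNA is not given in the labels. Since each condition was run once per line, and the labels name no separate cultures, every p-value below measures the spread between these arrays across stimuli or across the lines. The arrays are of bulk RNA, so fewer cells carrying a transcript and less transcript per cell cannot be told apart.

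The MAS5 signals had array medians of 61.2 to 79.6 and a trimmed mean of 500.1 on every array. The median of all probe sets was 0.29 log2 units higher on the ID1 siRNA arrays than on their controls in A549 and 0.05 higher in H1650, so values for A549 are also given after centring where that ends a call. The ID1 signal in A549 was 3720 with control siRNA and 1343 with ID1 siRNA under nicotine, and 3049 and 1343 under EGF. In H1650 it was 4964 and 881 under nicotine, and 5121 and 1031 under EGF. The array labelled as unstimulated A549 control stood at 1645, near the ID1 siRNA arrays, whereas the unstimulated H1650 control stood at 5030. All 6 epithelial markers were above the filter, with summed signals of 73348 to 118217 in A549 and 103032 to 117533 in H1650, though EPCAM (734 to 1520.3 against 12201 to 14055) and CDH1 (1122 to 2210.4 against 16807 to 19318) were lower in A549. Of 6 fibroblast markers 2 were above it (summed signal 325 to 469.6 in A549, 380.4 to 612 in H1650), of 4 endothelial markers 1 (213 to 415, 200.1 to 435) and of 3 blood markers none (84.8 to 155, 134 to 215). The filter is a mean over both lines. The fibroblast marker FAP, under it, had 6.87 to 21.1 in A549 but 177 to 326 in H1650. THY1, above it, had 175 to 276 and 15.3 to 98.5. Of 4 lung lineage markers 3 were above the filter (summed signal 406 to 604 in A549, 383 to 634 in H1650). The remaining one, the factor NKX2-1, was at or below 59.9 in A549 and 21.7 in H1650.

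**Figure D1:**
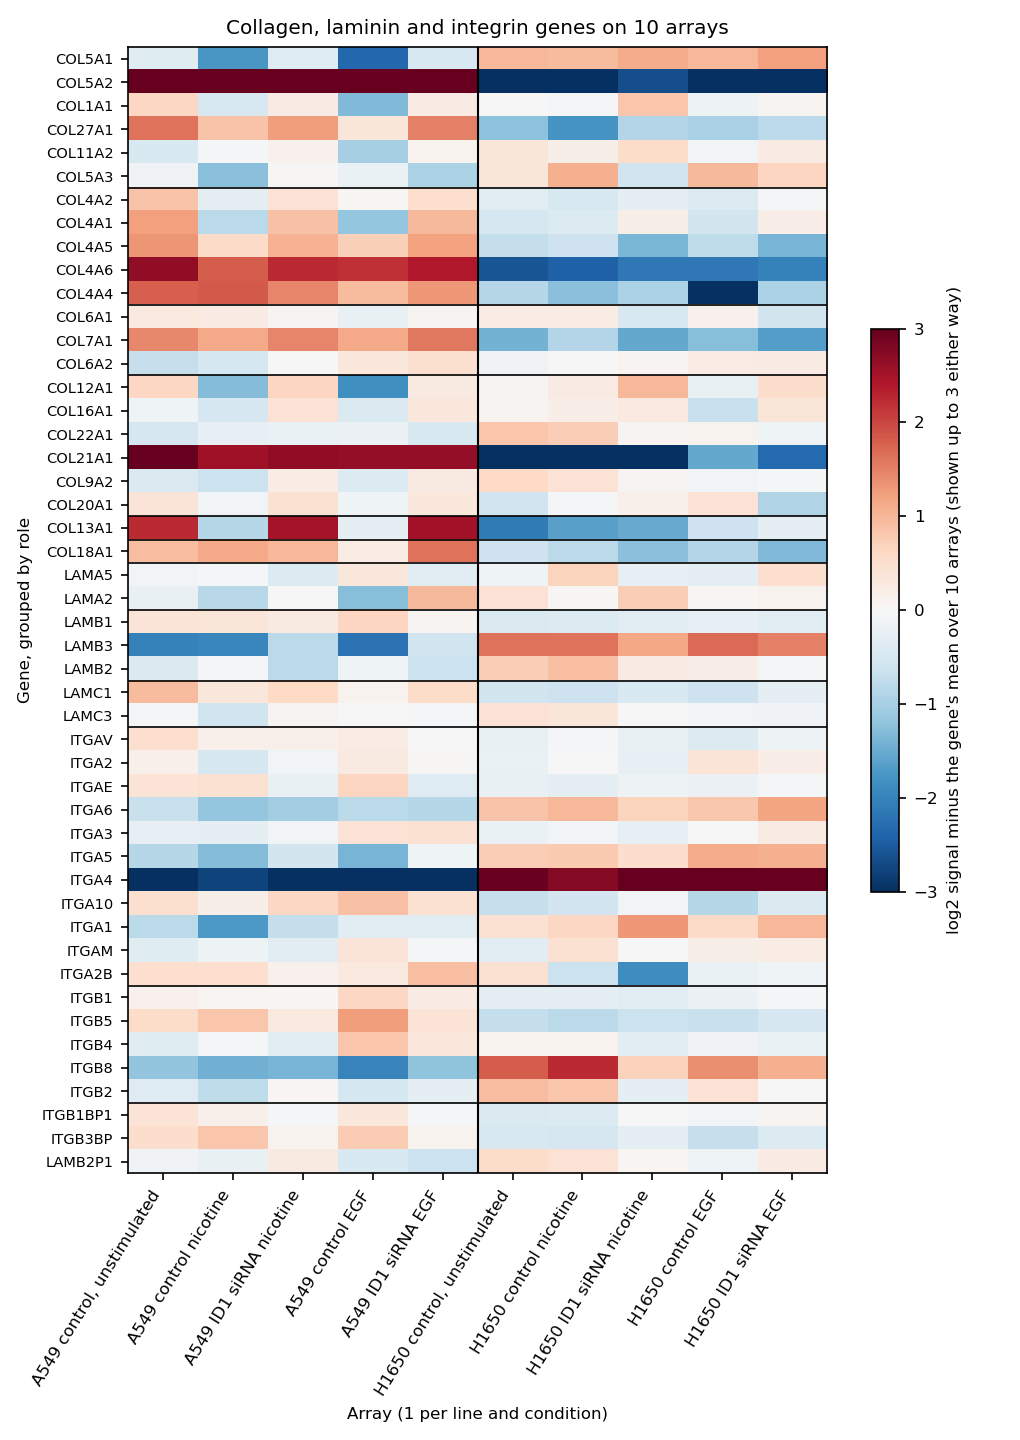
Heat map of the 48 genes (rows, grouped by role) on the 10 arrays (columns, 5 per line). Colour is the log2 signal minus the gene's mean over the 10 arrays, shown up to 3 either way. COL5A2 and COL21A1 are high in A549 and ITGA4 is high in H1650 on every array, while COL13A1, COL12A1 and COL4A1 are low on the stimulated A549 control arrays.

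The first comparison asked how the lines differ over the 5 matched conditions. In limma with Benjamini-Hochberg adjustment over 12514 genes, 29 of the 48 genes passed an adjusted p of 0.05, 18 higher and 11 lower in A549. The share was 60.4%, and of all genes tested 63.1% passed, 30.9% higher and 32.2% lower. After centring each array on its median 27 passed, 19 higher and 8 lower, against 62.0% of all genes (36.6% higher, 25.5% lower). The median difference was 0.15 for the 48 genes and -0.03 for all genes (log2, A549 minus H1650). The ranges of the 5 arrays did not overlap for 24 of the 48 genes, against 50.0% of all genes. Of the collagens 10 were higher and 3 lower in A549, of the laminin chains 2 and 2, and of the integrin subunits 5 and 6. Among the 48, 6 genes (COL21A1, COL4A4, COL5A3, ITGA2B, ITGA4 and LAMA2) were under the filter in 1 line and were kept through the other, so a difference of theirs follows in part from the choice. Of these 6, 4 are among the 29 called (COL21A1, COL4A4, ITGA2B and ITGA4).

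Among fibrillar collagens, the chains of collagen V, which starts and limits the growth of collagen I fibrils, went opposite ways. COL5A2 had signals in A549 of 11021 without stimulus, 7592 and 8214 in the stimulated controls and 10642 and 9759 with ID1 siRNA (nicotine and EGF in that order, here and below). In H1650 the same 5 conditions gave 56.1, 49.4, 54.8, 129 and 100.2. Every A549 array exceeded every H1650 array, by a fitted 7.02 ± 0.18 log2 units (limma SE, adjusted p = 4.12e-08). Since 3 of the 5 H1650 arrays lay under the array median, the size of this difference is uncertain. COL5A1 was the reverse, with 865 without stimulus, 334 and 219 in the stimulated controls and 852 and 818 with ID1 siRNA in A549, against 2207, 2167, 2227, 2405 and 2635 in H1650. It was lower in A549 by a log2 difference of -2.12 ± 0.28, and the lines did not overlap. COL5A3 ranged from 32.4 to 79.4 in A549 and from 51.1 to 160.1 in H1650 and was not called. COL1A1, the main chain of collagen I, overlapped between the lines at 223 to 853 and 501 to 998. COL27A1 was higher in A549, by 2.25.

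Of the 5 collagen IV genes 4 were called, all higher in A549. COL4A6 had signals of 5504, 3079.6, 3993, 4142 and 4576 in A549 and 147, 161, 196, 198 and 215 in H1650, in the order unstimulated, stimulated controls, ID1 siRNA. The difference was 4.53 ± 0.15 log2 units, or 23.1-fold (limma adjusted p = 1.04e-07), with no overlap. COL4A5, whose chain assembles with that of COL4A6 in some basement membranes, spanned 2737 to 4569 in A549 and 700.2 to 1189 in H1650 (1.95 ± 0.20). COL4A4 spanned 189.6 to 354 in A549, while in H1650 it spanned 9.68 to 55.0 and lay under the array median. Its difference was at least 3.57-fold, taken against the array median. COL4A2 was higher in A549 by 0.63, with overlapping ranges of 2374 to 5204 and 2050.1 to 2765. COL4A1, its partner in the common collagen IV trimer, spanned 899 to 4708 and 1378 to 2314 and was not called. A second bright probe set of COL4A2 gave a line difference of -0.25, opposite in sign to 0.63, and with the mean of its probe sets the difference was 0.19 and not called.

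Collagen IV genes lie head to head in pairs, so each pair shares the stretch between its start sites. The stretches of the pairs with a measured member are printed 5′ to 3′ on the plus strand (RefSeq, GRCh38.p14) to show what the measured neighbours share. The gap between COL4A1 and COL4A2 is 126 bases at chr13:110307158-110307283, that between COL4A4 and COL4A3 is 135 bases at chr2:227164489-227164623, and of the 379 bases between COL4A6 and COL4A5 the 250 at chrX:108439588-108439837 are shown. Capitals mark GC boxes (GGGCGG) and CCAAT boxes (CCAAT), each on either strand.
COL4A1-COL4A2: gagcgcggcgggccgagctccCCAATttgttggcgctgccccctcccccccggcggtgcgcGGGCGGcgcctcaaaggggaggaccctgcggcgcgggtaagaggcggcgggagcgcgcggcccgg
COL4A4-COL4A3: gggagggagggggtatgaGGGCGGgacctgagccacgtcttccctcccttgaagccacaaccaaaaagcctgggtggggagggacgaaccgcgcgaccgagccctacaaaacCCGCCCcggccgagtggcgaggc
COL4A6-COL4A5: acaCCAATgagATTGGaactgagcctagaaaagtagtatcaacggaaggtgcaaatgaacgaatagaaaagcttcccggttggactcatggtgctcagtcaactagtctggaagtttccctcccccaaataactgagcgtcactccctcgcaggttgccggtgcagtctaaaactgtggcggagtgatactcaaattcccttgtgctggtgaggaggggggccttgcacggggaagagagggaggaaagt
The first holds 1 GC box and 1 CCAAT box, the second 2 GC boxes and the third 2 CCAAT boxes. E-box letters (CANNTG) occur once in the third and not in the others. A match is a description of letters and not a binding site. RefSeq promoters were matched for 38 of the 48 genes. In the 250 bases upstream of the start an E-box was found in 50.0% of the 38, in 53.7% of the 10188 tested genes with a promoter and in 62.2% of all 27305 promoters. A GC box was found in 60.5%, 66.6% and 42.2%, and a CCAAT box in 23.7%, 34.9% and 33.0%.

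Outside collagen IV, COL21A1, a FACIT collagen, ranged from 650.1 to 1328 in A549 and from 7.9 to 38.3 in H1650. All H1650 values lay under the array medians, and the difference was at least 10.2-fold. COL7A1, the chain of the anchoring fibrils that tie basement membrane to stroma, ranged from 868 to 1199 in A549 and from 126 to 217 in H1650 (2.71 ± 0.19). COL18A1, the multiplexin, was higher by 1.96, from 513 to 1359.9 against 176 to 286. COL13A1, a transmembrane collagen found at cell junctions and adhesions, was higher by 2.45 ± 0.58 (limma adjusted p = 0.00579), yet its ranges overlapped at 97.0 to 1007 and 40.9 to 144, since the stimulated A549 controls were low. With control siRNA arrays only it was 1.81 and not called (adjusted p = 0.0575), and 3 of its 5 H1650 values lay under the array median. COL6A1 and COL6A2, chains of the beaded filaments of collagen VI, were not called and overlapped.

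LAMB3, the beta chain of the laminin that anchors epithelia at hemidesmosomes, had signals of 378, 394, 331.6, 877 and 1015 in A549 and 4744, 4771, 4965, 3427 and 4371 in H1650, in the order unstimulated, stimulated controls, ID1 siRNA. Every A549 array was below every H1650 array (-3.05 ± 0.30). The chains of the laminins common in adult basement membranes differed less. LAMC1 was higher in A549 by 1.01 and LAMB1 by 0.69, LAMB2 was lower by a difference of -0.82, and LAMA5 overlapped at 2212 to 3753 and 2453 to 4713. Another bright probe set of LAMC1 gave -0.67, so the sign of its line difference depends on the probe set, and with their mean it was 0.17 and not called.

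Among the integrins, ITGA4 is the alpha subunit of a receptor for fibronectin and VCAM1. It had 27.1 without stimulus, 31.3 and 20.5 in the stimulated controls and 27.4 and 19.9 with ID1 siRNA in A549, all under the array medians. The H1650 arrays in that order gave 1692, 1464, 1818, 2451 and 2107. The difference was at least 27.2-fold, and the gene was kept through its level in H1650. ITGB8, which pairs with ITGAV and binds latent TGF-beta, ranged from 251 to 441 in A549 and from 1626 to 4749 in H1650 (-2.89 ± 0.23). ITGA6, a laminin receptor subunit, ranged from 2641 to 3731 and from 9477 to 13381 (-1.80 ± 0.11). ITGA5, the alpha subunit of the classical fibronectin receptor, ranged from 478 to 1151 and from 1814 to 2729.8 (-1.69 ± 0.20). None of these 4 overlapped between the lines.

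The common beta subunit ITGB1 was 0.44 higher in A549, 22858 to 34447 against 17877 to 21625, and its call was lost after quantile normalization (0.10, adjusted p = 0.128). ITGAV was 0.41 higher, with a call lost without either unstimulated array (0.33). ITGB5, which joins ITGAV in a vitronectin receptor, was higher by 1.34. ITGB4, the hemidesmosome partner of ITGA6, overlapped at 1160.1 to 2665 and 1170.5 to 1603, and the collagen and laminin receptor subunits ITGA2 and ITGA3 were not called. Of the remaining subunits and chains, the collagen receptor subunits ITGA10 (1.05) and ITGA1 (-1.58) were called in opposite directions. ITGA2B was higher by at least 1.15-fold, a call lost in either line without the nicotine control, the nicotine ID1 siRNA or the EGF ID1 siRNA array (0.68 to 0.92). ITGB2, COL22A1 and COL11A2 were lower in A549 (-0.77, -0.64 and -0.50), with calls lost after centring for the last 3. COL9A2, COL20A1, LAMC3 and ITGAM were called in no comparison. Without the unstimulated A549 control, 26 genes passed, 17 higher and 9 lower.

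**Figure D2:**
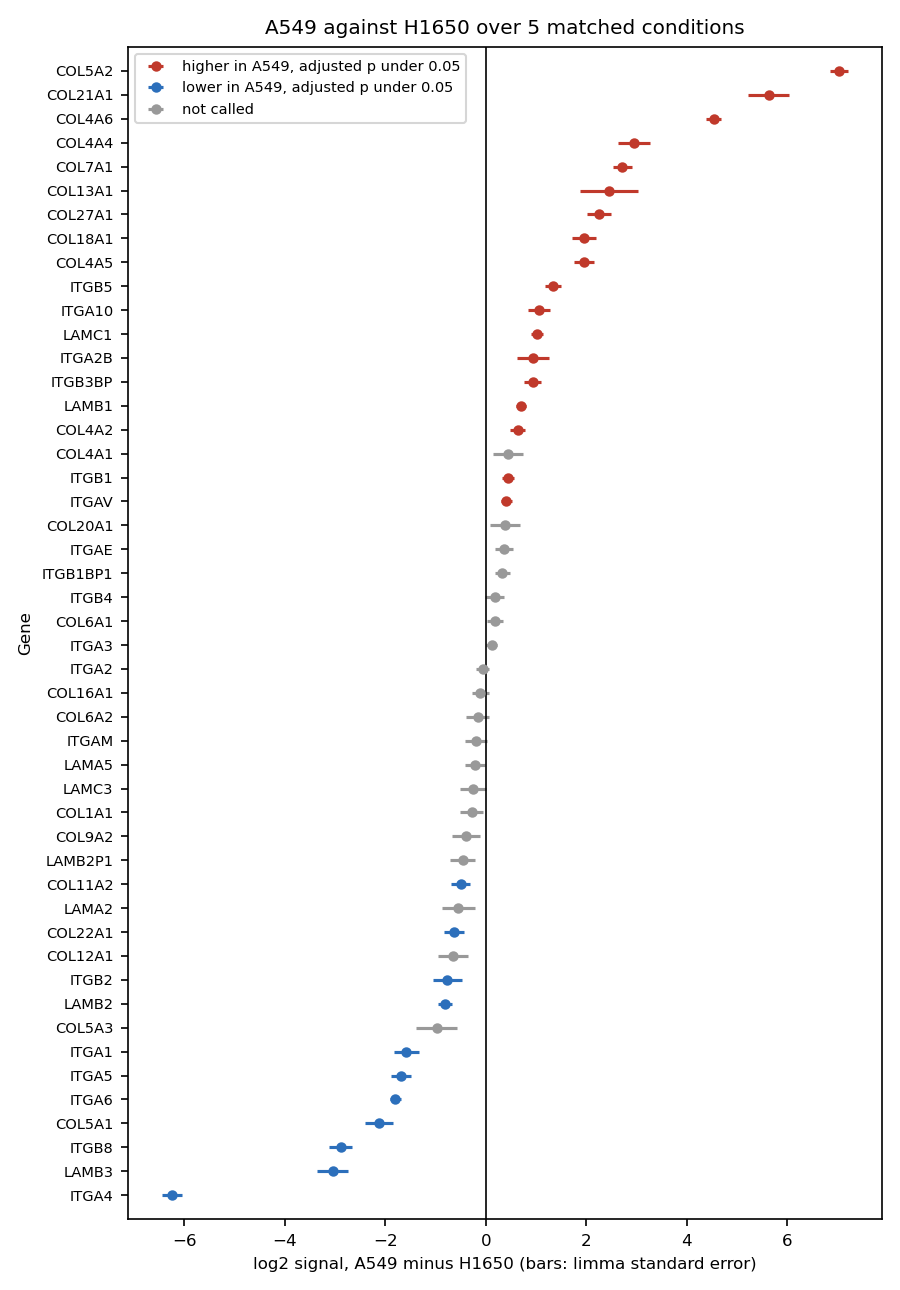
Difference of log2 signal between A549 and H1650 for each of the 48 genes (x axis, A549 minus H1650, with the limma standard error as bar), ordered by size. Red marks the 18 genes higher and blue the 11 lower in A549 at an adjusted p under 0.05, among them COL4A6 at 4.53 and LAMB3 at -3.05. COL21A1 and COL4A4 in H1650 and ITGA4 in A549 lie under the array median on all 5 arrays, and COL5A2 in H1650 on 3, so their points are fitted values of uncertain size.

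The main comparison asked what ID1 siRNA did in each line, against control siRNA with the same stimulus. In A549, 8 collagens rose, 4 laminin chains changed and integrin subunits went both ways. The limma fit with the 4 pairs of line and stimulus as blocks called 16 of 48 genes after Benjamini-Hochberg adjustment, 12 higher and 4 lower with ID1 siRNA. That is 33.3%, against 25.3% of all genes tested, 13.8% higher and 11.4% lower. The median effect was 0.32 for the 48 genes and 0.05 for all genes. After centring each array on its median, 17 genes were called, 7 higher and 10 lower, or 35.4% against 39.3% of all genes (7.58% higher, 31.7% lower), so that the share no longer exceeded that of all genes. The median was then 0.03 against -0.23. After quantile normalization 15 were called, 11 higher and 4 lower, or 31.2% against 22.8% of all genes (11.1% higher, 11.8% lower). The excess over all genes thus depended on the scaling. Of the 22 collagens 8 were called higher and none lower on the deposited scale, with a median of 0.54. After centring 5 were higher and none lower, with a median of 0.25. After quantile normalization 8 were higher and none lower, with a median of 0.50. The summed signal of the 4 endothelial markers was 339 to 415 with ID1 siRNA and 213 to 221 in the stimulated controls of A549, of the 6 fibroblast markers 381 to 410.5 and 325 to 415, and of the 3 blood markers 146 to 155 and 111 to 132. Of the endothelial markers, VWF, KDR and CDH5 stayed at or below 86.2 in A549, while PECAM1 stood at 157 to 267. The part of cells with these markers in the rise of the collagens was not tested. The laminin chains had 3 higher and 1 lower of 7, and the integrin subunits 1 higher and 2 lower of 16. After centring the laminin chains turned to 1 higher and 3 lower and the integrin subunits were 1 and 5. After quantile normalization the laminin chains were 2 and 1 and the integrin subunits 1 and 2.

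With each gene read from its brightest probe set, COL13A1 had the largest effect. In A549 its signal was 97.0 with control and 986 with ID1 siRNA under nicotine, and 142 and 1007 under EGF, with 819 in the unstimulated control. In H1650 the same arrays gave 56.2 and 61.3, 114 and 144, and 40.9. In A549 the ID1 siRNA arrays were 10.2-fold and 7.11-fold above their controls and the groups did not overlap, and the effect was 3.09 ± 0.27 log2 units (adjusted p = 0.00013). Its other probe sets, under the filter, gave 0.89 and 1.76 in A549, so the size rests on the brightest. The lowest effect under the alternative ways of processing was 1.92, still called.

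COL12A1, a FACIT collagen that decorates collagen I fibrils in tissues under tension, had 222 with control and 847 with ID1 siRNA under nicotine in A549, and 152 and 649.8 under EGF. In H1650 it had 648 and 1079.7, then 464 and 777. It rose 3.82-fold and 4.27-fold in A549, by 2.01 ± 0.15 (adjusted p = 5.26e-05). A second bright probe set gave a larger effect in A549, 3.08, and -0.25 in H1650, where the brightest gave 0.74.

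COL4A1 had 1154 with control and 3731 with ID1 siRNA under nicotine in A549, and 899 and 3957 under EGF. In H1650 it had 1520.1 and 2268, then 1378 and 2314. The ID1 siRNA arrays were above the controls in every pair of both lines, by 1.92 ± 0.12 in A549 (adjusted p = 3e-05) and 0.66 ± 0.12 in H1650 (adjusted p = 0.0118). Its other bright probe set gave 2.00 and 0.65.

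COL4A2, which shares with COL4A1 the 126 bases printed above, had 2374 and 3862 under nicotine and 2935 and 4077 under EGF in A549. It rose by 0.59 ± 0.10, a call lost after centring (0.30, adjusted p = 0.0535), while its other bright probe set gave 1.14. In H1650 it had 2050.1 and 2319, then 2144 and 2765, and was not called.

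COL5A1 had 334 and 852 under nicotine and 219 and 818 under EGF in A549, a rise of 1.62 ± 0.14 (adjusted p = 0.000147). In H1650 it had 2167 and 2405, then 2227 and 2635. The A549 groups did not overlap, and 2 other bright probe sets gave 2.09 and 1.24 there. Its partner COL5A2 was not called in A549, at 0.37 ± 0.15. COL1A1 rose in A549 by 1.14 ± 0.23, from 403 to 664 and from 223 to 659, and without either A549 EGF array the effect was 0.72 and not called. Its other bright probe sets gave 0.20 and 1.24. COL16A1, another FACIT collagen, rose by 0.85 ± 0.26, but its call was lost without any 1 of the 4 stimulated A549 arrays (0.78 and 0.93) and after centring (0.56).

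The promoters of the collagens with the largest effects in A549 outside collagen IV, and of LAMB3, are printed to show where E-box letters stand. These are the 250 bases before the most upstream RefSeq start (GRCh38.p14), 5′ to 3′ on the gene's strand, with CANNTG in capitals. LAMB3 has 3 listed starts and COL5A1 has 2. The windows are chr10:69801656-69801905 for COL13A1, chr6:75206054-75206303 on the minus strand for COL12A1, chr9:134641553-134641802 for COL5A1 and chr1:209652426-209652675 on the minus strand for LAMB3.
COL13A1: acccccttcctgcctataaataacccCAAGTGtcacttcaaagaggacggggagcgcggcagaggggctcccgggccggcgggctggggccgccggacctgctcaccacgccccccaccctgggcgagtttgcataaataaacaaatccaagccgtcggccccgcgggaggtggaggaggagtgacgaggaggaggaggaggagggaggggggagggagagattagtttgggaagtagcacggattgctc
COL12A1: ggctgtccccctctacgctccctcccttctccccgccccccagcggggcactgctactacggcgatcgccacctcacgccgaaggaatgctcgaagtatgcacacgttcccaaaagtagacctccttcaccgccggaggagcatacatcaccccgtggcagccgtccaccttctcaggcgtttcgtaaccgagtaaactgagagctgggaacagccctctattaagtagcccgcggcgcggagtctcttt
COL5A1: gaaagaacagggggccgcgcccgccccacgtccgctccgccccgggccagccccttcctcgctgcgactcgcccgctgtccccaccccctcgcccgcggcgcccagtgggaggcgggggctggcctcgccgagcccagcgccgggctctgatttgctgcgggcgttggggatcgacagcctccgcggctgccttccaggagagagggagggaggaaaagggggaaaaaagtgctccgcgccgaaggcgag
LAMB3: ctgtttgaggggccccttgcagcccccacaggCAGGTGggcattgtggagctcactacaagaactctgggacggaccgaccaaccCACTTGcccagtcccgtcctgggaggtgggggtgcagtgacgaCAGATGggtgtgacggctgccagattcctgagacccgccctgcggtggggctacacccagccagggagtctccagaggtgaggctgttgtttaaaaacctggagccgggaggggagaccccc
COL13A1 has 1 such motif and LAMB3 has 3, while COL12A1 and COL5A1 have 0. The window of LAMA2, a dim gene with a larger effect in A549 than LAMB3 (1.54 against 1.38), is not printed and also has 0. The gap before COL4A1 has none either, so genes that rose with ID1 siRNA in A549 included both kinds of window.

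Among the laminins, LAMB3 rose in A549 from 394 to 877 under nicotine and from 331.6 to 1015 under EGF, 2.23-fold and 3.06-fold. The effect was 1.38 ± 0.13 (limma adjusted p = 0.000241), and every A549 array still lay below the H1650 arrays. In H1650 it had 4771 and 3427, then 4965 and 4371, and was not called at -0.33. LAMA2, the alpha chain of muscle and nerve laminins, was dim, at 43.4 and 77.1 under nicotine and 32.1 and 153 under EGF in A549. Its rise was at least 1.72-fold, and its call was lost without either A549 EGF array (0.83) and after centring (1.25, adjusted p = 0.055). LAMC1 rose by 0.36, a call lost without either A549 EGF array (0.27) and after centring (0.07). LAMB2 fell in A549 from 666 to 392.2 and from 632 to 443 (-0.64 ± 0.15), and without either A549 nicotine array the effect was -0.51 and not called.

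ITGA5 was the only integrin subunit called higher in A549 in this fit. It had 512 and 858 under nicotine and 478 and 1151 under EGF, 1.68-fold and 2.41-fold, with an effect of 1.01 ± 0.14 (limma adjusted p = 0.00153). In H1650 it had 2171 and 1814, then 2729.8 and 2649.6.

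ITGAE, which pairs with the beta 7 subunit to bind E-cadherin, fell in A549 from 8130.1 to 5089.6 and from 9337 to 4585. The ratios were 0.626 and 0.491, the effect was -0.85 ± 0.12 (limma adjusted p = 0.00137), and the H1650 arrays stayed between 4954 and 5691. ITGB5 fell from 9072 to 6238 and from 12273 to 6838 in A549 (-0.69 ± 0.11). Other bright ITGB5 probe sets gave -0.04, 0.47 and -0.33, so this fall rests on the brightest. ITGB1, ITGAV, ITGA2, ITGA3, ITGA6 and ITGB4 were not called in either line, with effects between -0.37 and 0.12 in A549.

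The genes that encode no chain or subunit were measured in the same way. ITGB3BP, a centromere protein first found as a partner of the integrin beta 3 tail, fell in A549 from 3368 to 2033 and from 3189 to 2016 (-0.70 ± 0.10). ITGB1BP1, which binds the integrin beta 1 tail and holds the receptor inactive, had 3294 and 2869, then 3667 and 2861, and was not called in A549. LAMB2P1, a pseudogene of LAMB2, was not called in either line.

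Across A549, 8 of the 16 genes stayed called under each alternative way of processing that was run: COL12A1, COL13A1, COL4A1, COL5A1, LAMB3, ITGA5, ITGAE and ITGB3BP. At least 2-fold higher in both A549 pairs were 5 of the 48 genes, against 3.85% of all genes. These were COL13A1, COL12A1, COL4A1, COL5A1 and LAMB3.

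**Figure D3:**
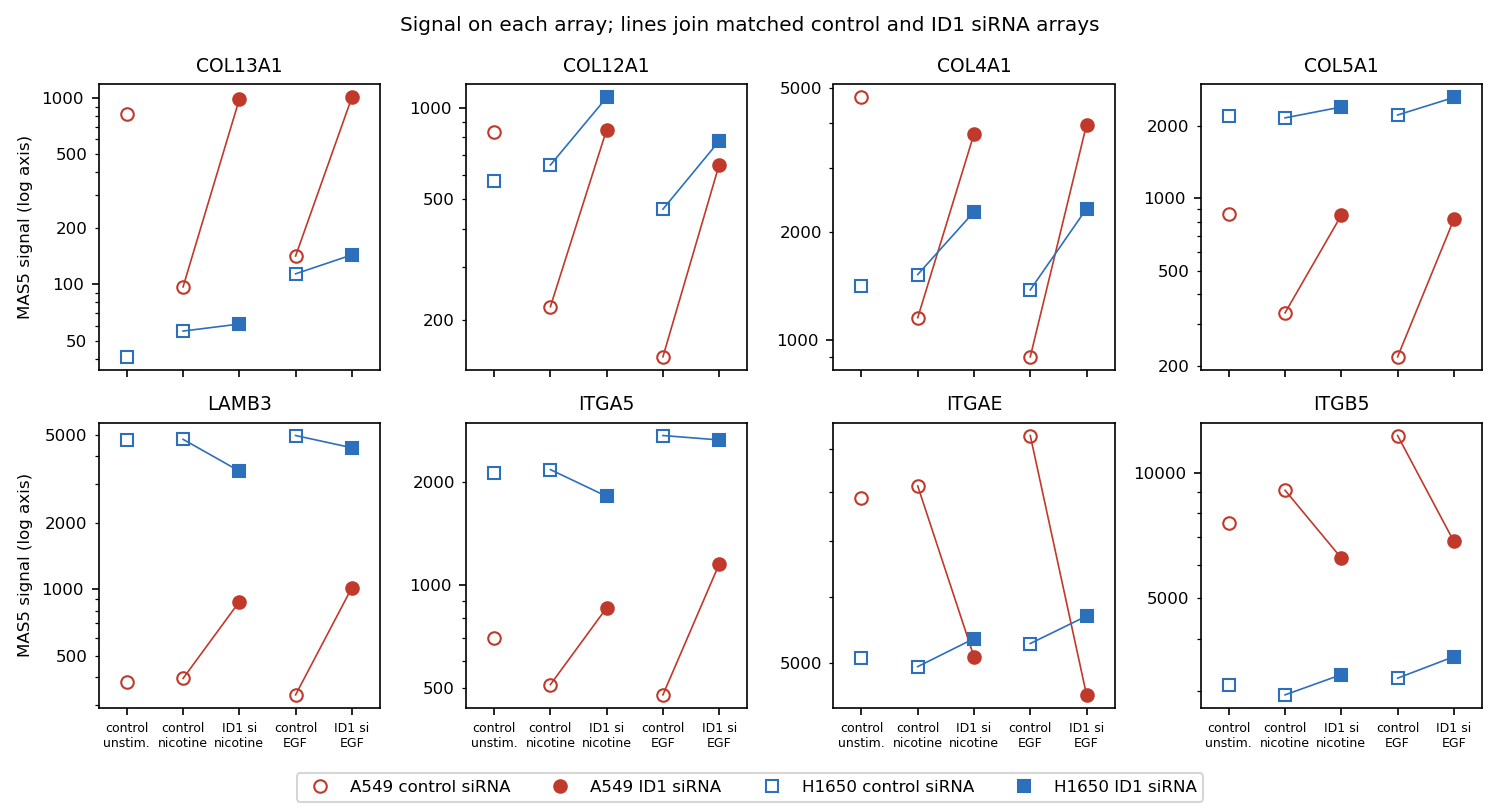
MAS5 signal (log axis) of 8 genes on each of the 10 arrays, by siRNA and stimulus, with lines joining each ID1 siRNA array to its matched control. In A549, COL13A1 goes from 97.0 to 986 and from 142 to 1007, and ITGAE from 8130.1 to 5089.6 and from 9337 to 4585, while the H1650 pairs of both genes are flatter.

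In H1650, the genes of this group called with ID1 siRNA on the deposited scale were all collagens. There were 5 calls of 48 in the same limma fit, 3 higher and 2 lower, or 10.4% against 12.3% of all genes (5.64% higher, 6.66% lower). The median effect was 0.04 for the 48 genes and -0.01 for all genes. Without either H1650 EGF array 9 genes were called, 4 higher and 5 lower, after centring 8, 3 higher and 5 lower (13.9% of all genes), and with the mean of all probe sets per gene or without the intensity trend none. No gene of the 48 was 2-fold changed in both H1650 pairs in either direction, against 0.479% higher and 0.735% lower of all genes.

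COL5A2, at about the array median in H1650, had 49.4 with control and 129 with ID1 siRNA under nicotine, and 54.8 and 100.2 under EGF. Both ID1 siRNA arrays were above both controls, by at least 1.48-fold (fitted effect 1.13 ± 0.15, adjusted p = 0.00338). Its second bright probe set gave 0.26. COL12A1 rose by 0.74 ± 0.15 (adjusted p = 0.0142) on its brightest probe set, while its second bright probe set gave -0.25. Without either H1650 nicotine array the effect was 0.75 and not called. COL4A5 fell in H1650 from 1189 to 708 and from 1074 to 700.2, by a log2 effect of -0.68 ± 0.10 (adjusted p = 0.00425). In A549 the same gene had 2737 and 3787, then 3015 and 4192, and rose by 0.47 ± 0.10, a call lost after centring (0.18) and without any 1 of the stimulated A549 arrays (0.47 and 0.48). COL4A6, its head-to-head neighbour, was not called in either line, at 0.31 ± 0.12 in A549 and 0.22 ± 0.12 in H1650. COL6A1 fell in H1650 from 553 to 342 and from 514 to 325 (-0.68 ± 0.17, adjusted p = 0.0361), but without any 1 of the 4 stimulated H1650 arrays it was not called (-0.66 and -0.69). No laminin chain and no integrin subunit was called in H1650 on the deposited scale, and after centring 1 of each was called lower.

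Between the lines, 18 of the 48 genes were called in A549 or H1650. COL4A1 and COL12A1 were called higher in both, and COL4A5 was called in both in opposite directions. The difference of the 2 effects was tested in the same limma fit and passed for 13 of 48 genes, 9 with a higher effect in A549 and 4 with a lower. That is 27.1%, against 11.9% of all genes (6.98% higher, 4.92% lower), and the median difference was 0.30 against 0.07. After centring 8 were higher and 5 lower, again 27.1%, against 19.4% of all genes (4.98% higher, 14.5% lower). Of the 22 collagens 6 had a higher effect in A549 and none a lower, of the integrin subunits 2 and 2, and of the laminin chains 1 and 0. After centring the collagens were 5 and 1.

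The fitted difference was 2.85 ± 0.38 for COL13A1 (adjusted p = 0.00252), whose H1650 signals lay under the array median on 3 of 5 arrays, the nicotine pair included, so that its size is uncertain. It was 1.72 ± 0.19 for LAMB3 (adjusted p = 0.00104) and 1.43 ± 0.20 for COL5A1 (adjusted p = 0.00344). For COL12A1 it was 1.27 ± 0.21 and for COL4A1 1.25 ± 0.18, and both genes were called higher in both lines. The second bright probe set of COL12A1 gave -0.25 in H1650, so the sign of its effect there depends on the probe set. COL4A5 differed by 1.15 ± 0.14 and ITGA5 by 1.16 ± 0.20. Lower effects in A549 were those of ITGAE at -0.96 ± 0.16, ITGB3BP at -0.95 ± 0.13, ITGB5 at -0.86 ± 0.15 and ITGB1BP1 at -0.56 ± 0.15. ITGB1BP1 was not called without either A549 EGF array (-0.49) or either H1650 nicotine array (-0.43), nor after quantile normalization (-0.51). Other bright probe sets of ITGB5 gave differences of -0.38, 0.29 and -0.70, so its sign depends on the probe set.

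ITGB8 also differed, by 1.37 ± 0.38 (limma adjusted p = 0.0493), with 369.5 and 383, then 251 and 436 in A549, and 4749 and 1626, then 2635 and 2084 in H1650. Without either H1650 nicotine array the difference was 0.76, without either A549 EGF array 0.99 and after quantile normalization 1.19, and none of these was called. COL7A1 differed by 0.92 ± 0.24, but a second probe set of nearly the same level gave -0.37, and the call was lost without any 1 of the A549 stimulated arrays (0.85 and 1.00) or either H1650 nicotine array (0.78). COL13A1 alone among the 13 was called under each alternative.

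**Figure D4:**
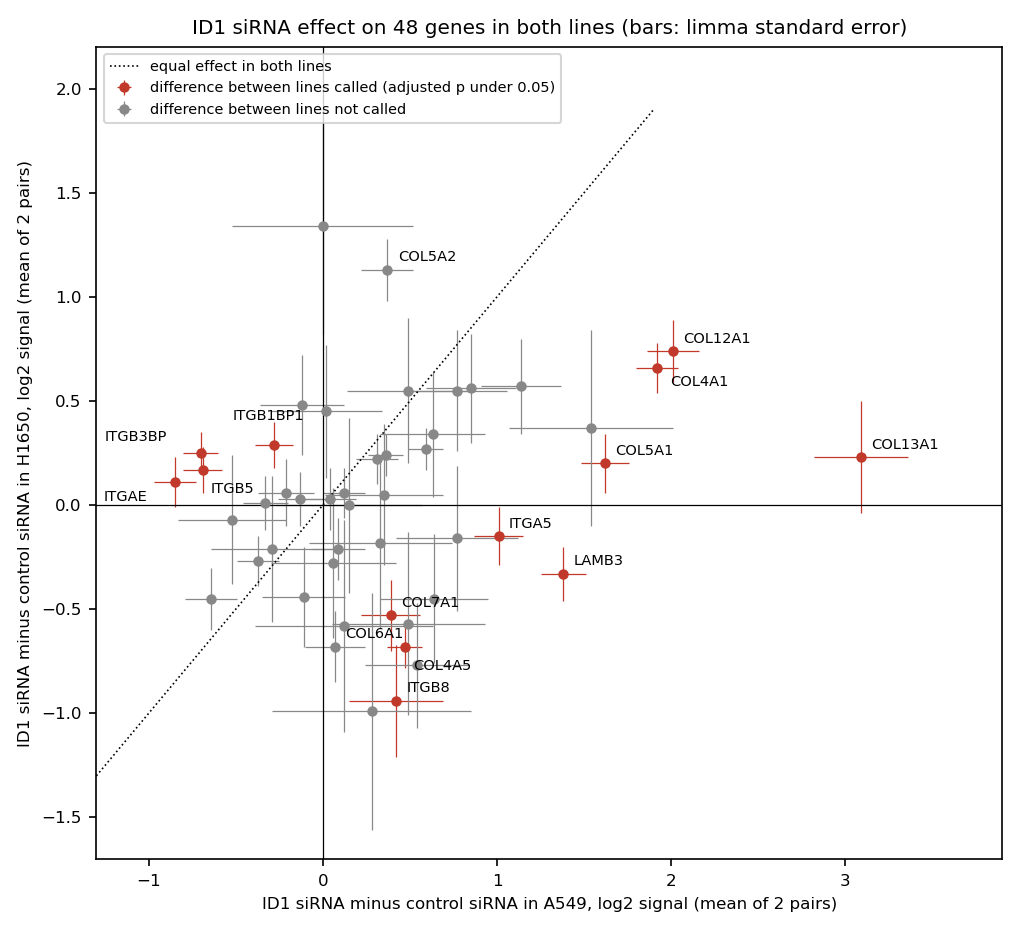
Effect of ID1 siRNA on the 48 genes in A549 (x axis) and H1650 (y axis), as log2 signal of ID1 siRNA minus control over 2 pairs per line, with limma standard errors. The dotted line marks equal effects. Red marks the 13 genes whose effects differed between lines at an adjusted p under 0.05, with COL13A1 farthest right at 3.09 and ITGAE farthest left at -0.85.

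The effect of each stimulus was asked with control siRNA arrays of both lines together. No gene of the 48 and no gene of the 12514 passed limma's adjusted threshold for nicotine or EGF (0.0% of all genes in each). The fit takes the effect as equal in both lines, so a response that differs between lines widens its spread. It therefore cannot tell whether genes responded in 1 line only. For COL13A1 the SE was 0.92 for either stimulus, against 0.27 for ID1 siRNA in A549. At an unadjusted p under 0.05 there was 1 of the 48 genes and 189 of all genes for nicotine, and 6 and 747 for EGF. The median of the 48 was -0.12 with nicotine and -0.17 with EGF, against 0.01 and -0.03 for all genes. Collagens with an unadjusted p under 0.05 and signals above the array medians were COL4A2 with nicotine (-0.64 ± 0.22), and COL12A1 (-1.38 ± 0.47), COL1A1 (-1.04 ± 0.37) and COL4A1 (-1.21 ± 0.48) with EGF, with adjusted p of 0.831 to 1. COL4A4 with EGF was also among them but lay under the array median in H1650.

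Single control arrays were also set side by side, which with 1 array each allows no test. In A549, both stimulated controls were at least 2-fold below the unstimulated control for 5 of the 48 genes, COL12A1, COL13A1, COL1A1, COL4A1 and COL5A1, against 2.01% of all genes. In H1650 this held for none of the 48, against 0.176%. In neither line were the stimulated controls 2-fold above the unstimulated control for any of the 48, against 0.863% of all genes in A549 and 0.511% in H1650. The A549 ID1 siRNA arrays were at least 2-fold below the unstimulated control for none of the 48 (0.152% of all genes) and above it for LAMB3 (2.18%). The H1650 ID1 siRNA arrays were 2-fold below or above it for none of the 48 (1.11% and 1.1%). For COL13A1 the 5 A549 arrays thus gave 819 without stimulus, 97.0 and 142 with control siRNA and stimulus, and 986 and 1007 with ID1 siRNA and stimulus. COL12A1 in that order gave 831, 222, 152, 847 and 649.8, and COL4A1 gave 4708, 1154, 899, 3731 and 3957. The stimulated controls are shared by this comparison and that of ID1 siRNA, so the values are set side by side and are not independent. Over all 48 genes, the unstimulated A549 control was nearer to the ID1 siRNA arrays than to the stimulated controls for 29 (60.4%), against 56.4% of all genes. In H1650 this held for 12 (25.0%), against 33.0%. For ID1 itself the unstimulated A549 control, at 1645, was also nearer to the ID1 siRNA arrays (1343 on each). Its stimulated controls were higher, at 3720 and 3049, where those of the collagens above were lower. The part of the unstimulated array in these values was not tested.

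Other genes of the pathway were counted from lists of known members, to be read beside the 25.3% of all genes called in A549 (39.3% after centring) and 12.3% in H1650 (13.9%). Of 23 measured genes of collagen processing, ID1 siRNA gave 7 higher and 2 lower in A549 (median 0.03, and 3 higher and 7 lower after centring). The 9 called are 39.1% of the list. In H1650 it gave 2 higher and 1 lower, or 13.0%. SERPINH1, the collagen chaperone, rose in both lines. It had 1690.4 and 3390.1 under nicotine and 1653 and 3121 under EGF in A549, and 4056 and 6428, then 2995 and 5917 in H1650. Its effects were 0.96 ± 0.11 and 0.82 ± 0.11. Without stimulus the A549 control stood at 3046 and the H1650 control at 4069. The collagen crosslinking enzyme LOX rose in A549 from 26.9 to 60.0 and from 6.71 to 65.1, all below the array medians. LOXL4 rose by 1.17, from 91.7 to 264 and from 114 to 202. The unstimulated A549 control had 62.8 for LOX and 196 for LOXL4. FKBP10, a collagen prolyl isomerase, fell in H1650 (-0.99). P3H3, of the same list, rose in H1650 from 10.7 to 107 and from 9.36 to 91.7. Its fitted effect was 3.31 ± 0.36, of uncertain size since the controls lay under the array medians. In A549 it had 158 and 339, then 175 and 333. The difference between lines was called (-2.29 ± 0.51, limma adjusted p = 0.0242).

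Of 13 basement membrane partners and non-integrin receptors, 3 were higher and 2 lower in A549 (38.5%, and 2 higher and 3 lower after centring) and 0 higher and 2 lower in H1650 (15.4%). NID1, which bridges laminin and collagen IV, had 517 and 1442, then 522 and 1468 in A549, and 2526 and 1655, then 2499 and 1953 in H1650. It rose in A549 by 1.49 ± 0.11 and fell in H1650 (-0.48 ± 0.11), and the difference of 1.97 ± 0.15 was called (limma adjusted p = 0.000134). SPARC, a collagen-binding matricellular protein, rose in A549 by 1.45 ± 0.12, from 248 to 678 and from 158 to 429.8. TINAGL1, a basement membrane protein, was lower in A549 with ID1 siRNA, at 111 and 30.0, then 81.4 and 31.6, near or below the array medians. Without stimulus, the A549 control had 1356 for NID1, 551 for SPARC and 45.4 for TINAGL1.

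Of 25 genes of the integrin adhesion complex, 4 were higher and 4 lower in A549 (32.0%, and 1 and 8 after centring). In H1650 1 was higher and 4 lower (1 and 5, or 24.0%, after centring). On the deposited scale the effects differed between lines for none of them in limma (adjusted p under 0.05), against 11.9% of all genes. At an unadjusted p under 0.05 there were 4. After centring 1 was called, with a lower effect in A549 (4.0%, against 19.4% of all genes). After quantile normalization 2 were called, 1 in each direction (8.0%, against 11.3%). NEDD9, a scaffold of focal adhesions, rose in both lines (0.70 and 0.75), and VCL, which links talin to actin, fell in both (-0.74 and -0.62). Of 16 other integrin ligands 6 were higher and none lower in A549 (37.5%, and 5 higher and 1 lower after centring). In H1650 2 were higher (12.5%, and 1 higher and 1 lower after centring). CCN2, an integrin-binding matricellular protein, rose from 451 to 2777 and from 496 to 2774 in A549, with 2907 in the unstimulated control. TNC, a ligand of several integrins, rose in A549 by 1.77, and ICAM1, a ligand of leukocyte integrins, by 1.88. TNC went from 109 to 281 and from 80.6 to 365, with 285 in the unstimulated control. ICAM1 went from 175 to 645 and from 147 to 541, with 228 in the unstimulated control. The effects were also higher in A549 than in H1650, by 2.46 for CCN2, 2.57 for ICAM1 and 1.75 for TNC.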

How the data were processed

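RNA of A549 and H1650 cells was measured on 10 arrays. The values are linear signal intensities, 1 per probe set, which the authors made with GCOS 1.4 and MAS5 per the submitters' processing notes. The labels mention log2, but the deposited intensities are linear and log2 was computed here. Arrays were scaled before deposit to a 2% trimmed mean of 500.1. Detection calls were not used here. All 10 columns were mapped, and 0 others were found. Of 54675 probe sets, 62 controls, 1801 with several symbols and 11721 without a gene were left out. Of the 41091 others, 41037 were matched by Entrez identifier.

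Per gene the brightest probe set was kept, and genes with mean log2 of 6.06 or more (signal 66.7, the median of all probe sets) were tested with limma 3.58.1 in R 4.3.3 with an intensity trend and Benjamini-Hochberg adjustment over all 12514 genes. Genes with an adjusted p under 0.05 were called. Line, nicotine and EGF came from a fit to 10 arrays with line and condition as terms (4 residual degrees of freedom). ID1 siRNA came from 8 stimulated arrays with the 4 pairs of line and stimulus as blocks (2 residual degrees of freedom). The pairing comes from the labels: line and stimulus. "At least" folds set the brighter group's mean against the higher of the dimmer value and the array median.

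Members and lists were chosen with earlier results of these data known. Given array by array are up to 6 called genes per direction with the largest difference in the line comparison, in ID1 siRNA in each line (those moving the same way in both pairs) and in their difference, and partners that share a protein. From each pathway list up to 3 per direction were named. GC and CCAAT boxes and the 4 printed promoters were chosen after the values were seen. Sequences are RefSeq's (GRCh38.p14).

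Alternatives were centring by array median, quantile normalization, log2 of the signal plus 16, no filter, a filter at mean log2 of 7, the mean of all probe sets per gene, no intensity trend, control siRNA arrays only (for line and stimuli), line and stimulus terms in place of pairs, and leaving out each array. With 200 genes changed in simulated data, 2-fold changes were recovered in 94.0% for line, 79.1% for ID1 siRNA in A549, 76.1% in H1650 and 55.2% for their difference, with 11.1%, 6.67%, 9.88% and 6.48% of calls false. The simulated arrays had independent noise, equal base levels in both lines and no shift of array medians. These rates hold for that setting and were not measured for arrays with such a shift or with more genes changed. The number of arrays limits the precision.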

Additional observations from a re-analysis of the deposited data

Results flagged for a closer look

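The effect of ID1 siRNA differed between A549 and H1650 in the limma test of the difference for 13 of the 48 genes (27.1%, against 11.9% of all genes). The difference, as log2 effect in A549 minus that in H1650, was 2.85 for COL13A1 (3.09 in A549 and 0.23 in H1650), 1.43 for COL5A1 (1.62 and 0.20), 1.27 for COL12A1 (2.01 and 0.74), 1.25 for COL4A1 (1.92 and 0.66), 1.15 for COL4A5 (0.47 and -0.68) and 0.92 for COL7A1 (0.39 and -0.53). It was 1.72 for LAMB3 (1.38 and -0.33). Among integrin subunits it was 1.37 for ITGB8 (0.42 and -0.94), 1.16 for ITGA5 (1.01 and -0.15), -0.86 for ITGB5 (-0.69 and 0.17) and -0.96 for ITGAE (-0.85 and 0.11). For the integrin-binding proteins it was -0.56 for ITGB1BP1 (-0.28 and 0.29) and -0.95 for ITGB3BP (-0.70 and 0.25). The H1650 values of COL13A1 lay under the array median on 3 of 5 arrays. Other bright probe sets of ITGB5 gave differences of -0.38, 0.29 and -0.70, and the other of COL7A1 gave -0.37. No group holds more than 1 array, so no array was compared with others of its own group.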

How the results depend on the processing

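For A549 against H1650, the 29 calls were 25 to 31 when each array was left out, and 20 of the 29 genes were called under each alternative that tested them (3 of these, COL21A1, COL4A4 and ITGA1, are not tested with the filter at mean log2 of 7). COL11A2 reversed to 0.32 with the mean of all probe sets, from -0.50. For ID1 siRNA in A549, 16 genes became 10 without the intensity trend, 11 with the mean of all probe sets, and 11 to 23 when each array was left out, and 8 were called under every alternative. For H1650, 5 became 8 after centring, 0 without the intensity trend and 0 with the mean of all probe sets, and 5 to 9 when each array was left out. The 9 arose without either H1650 EGF array. None of the 5 was called under every alternative. For the difference between lines, 13 became 6 with the mean of all probe sets, 1 without the intensity trend, and 11 to 16 when each array was left out, and only COL13A1 was called under every alternative. The cause of these shifts was not tested. With line and stimulus in place of the pairing (no replicate block) the counts were 16 in A549, 6 in H1650 and 11 for the difference. Nicotine and EGF gave 0 calls under each alternative. Leaving out an array removes its partner from the paired comparison. Under the array median were 2 to 6 of the 48 genes per array, and for these the level is only a bound.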
